A study of Mus musculus with 4 samples.

Results

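Chemokine receptors steer monocytes and macrophages towards bone. Their RNA in osteoclast precursors is described here for 6 genes: Ccr1, Ccr2, Ccr3, Cx3cr1, Cxcr4 and Ccrl2. They were taken from the deposited table by gene name, which gave 6 rows of 34745. RNA was measured in bone marrow derived macrophages (BMMs), wild type cells isolated from the marrow of male C57BL/6 mice aged 8 weeks. The cells were kept without serum for 12 h and then received RANKL, the cytokine that induces osteoclasts, at 100 ng/mL in complete medium for 24 h. The RANKL+DI group (2 libraries) also received dimethyl itaconate (DI), a membrane permeable derivative of the macrophage metabolite itaconate, and the RANKL+Veh group (2 libraries) received DMSO as vehicle. The labels give the dose of DI as 20 mM and the paper's methods as 20 μM. No library without RANKL was analysed here, so the values compare DI with vehicle under RANKL only. The labels do not say whether the libraries of a group came from separate mice or cultures, so the p-values measure the spread between these libraries, which may be technical.

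Chemokine receptors are receptors with a bundle of membrane-spanning helices that signal through inhibitory G proteins, after which kinases and arrestins switch them off. Ccr1 answers to Ccl3, Ccl5 and Ccl9, and Ccl9 is a chemokine that osteoclasts themselves make. Ccr2 recognises Ccl2, Ccl7 and Ccl12 and brings inflammatory monocytes out of the marrow, and Ccr3, best known from eosinophils, recognises eotaxins. Cx3cr1 binds the membrane-bound chemokine Cx3cl1 and marks patrolling monocytes and osteoclast precursors. Cxcr4 binds Cxcl12 and holds cells in the marrow. Ccrl2 is an atypical receptor that presents chemerin to other cells and is not known to signal through G proteins.

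The libraries held between 16085692 and 19403480 counts, and edgeR's quasi-likelihood test covered 12590 genes. Levels are CPM, the counts as a share of the library size scaled by the TMM method, which allows for a few genes taking a larger share of a library. A gene was called at an adjusted p under 0.05. The macrophage label fitted its markers, whose summed level ran from 22969 to 29968 CPM over the libraries, with 11 of 11 marker rows tested, 5 higher and 2 lower with DI (the name Itgam stands on 2 rows). Of 12 osteoclast markers, 10 were tested, and 6 were lower and 2 higher with DI. Calcr, a marker of mature osteoclasts, had no count in any library. Over all tested genes, 7.14% were higher and 7.70% lower. The lists of other cell types summed to at most 11.1 CPM per library for neutrophils, 5.12 for eosinophils, mast cells and basophils, 4.56 for dendritic cells and 0.600 for B cells, and T and NK cell markers lay under the dendritic maximum. No gene of these lists was called. Stromal and endothelial markers summed to 50.7 and 52.1 CPM with DI and 62.4 and 67.6 with vehicle, and of 6 tested 1 was lower, Kdr.

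All 6 receptor genes passed the filter on low counts. With DI, Cx3cr1 fell and Ccr1 rose, by a smaller amount, while Ccr2, Ccr3, Cxcr4 and Ccrl2 did not pass the test. So 1 of 6 was called higher, where 7.14% of all tested genes were, and 1 of 6 lower, where 7.70% were. The 2 groups did not overlap for 3 of the 6 genes, Cx3cr1, Ccr1 and Cxcr4, against 58.6% of all tested genes. The median log2 fold change of the 6 genes was -0.16, and that of all tested genes 0.0012. Summed over the 6 genes, the level was 279 and 278 CPM with DI and 278 and 270 CPM with vehicle.

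**Figure D1:**
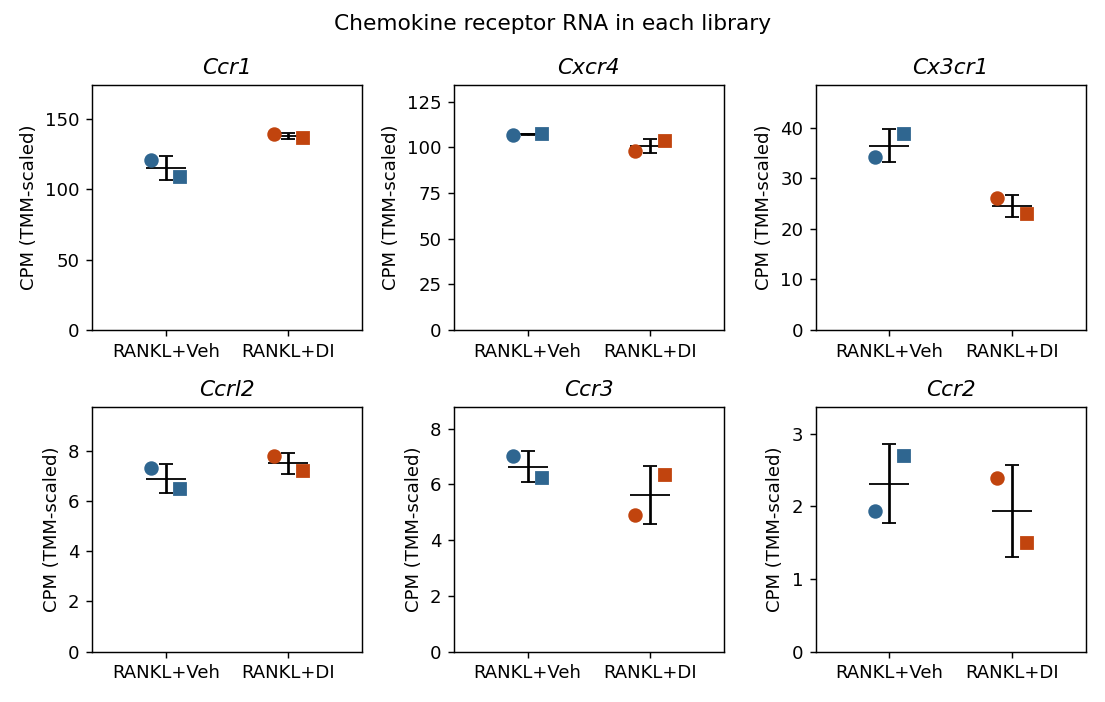
CPM (TMM-scaled) of the 6 receptor genes in each library, with RANKL+Veh in blue and RANKL+DI in red, circles for replicate 1 and squares for replicate 2, and the mean ± SD (n = 2) as black bars on axes that start at 0. Both DI points of Cx3cr1, at 26.0 and 23.0 CPM, lie under both vehicle points, and both DI points of Ccr1, at 139 and 136 CPM, lie above both vehicle points.

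The promoters of Cx3cr1 and Ccr1 are shown as the genes that passed the test in opposite directions, and that of Ccr3 as the one that held letters of an AP-1 and an NF-kB element. Each runs 5′ to 3′ over 300 bases on the strand of its gene, from 250 bases before the start site, in RefSeq's GRCm38.p6, and RefSeq promoters were found for all 6 genes. Capitals mark the letters of a searched element. The windows lie at chr9:120068247-120068546 (minus strand), chr9:123968643-123968942 (minus strand) and chr9:124021721-124022020 (plus strand).
Cx3cr1: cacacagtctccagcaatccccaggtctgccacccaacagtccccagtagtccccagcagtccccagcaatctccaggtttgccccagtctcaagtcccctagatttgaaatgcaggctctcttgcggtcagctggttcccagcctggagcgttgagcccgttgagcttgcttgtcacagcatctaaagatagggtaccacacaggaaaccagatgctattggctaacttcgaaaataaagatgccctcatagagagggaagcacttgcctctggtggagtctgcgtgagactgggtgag
Ccr1: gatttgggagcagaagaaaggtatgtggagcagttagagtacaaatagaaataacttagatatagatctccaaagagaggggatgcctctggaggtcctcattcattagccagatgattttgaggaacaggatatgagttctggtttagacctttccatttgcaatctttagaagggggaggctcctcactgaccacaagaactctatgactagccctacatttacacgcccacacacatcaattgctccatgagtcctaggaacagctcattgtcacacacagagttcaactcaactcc
Ccr3: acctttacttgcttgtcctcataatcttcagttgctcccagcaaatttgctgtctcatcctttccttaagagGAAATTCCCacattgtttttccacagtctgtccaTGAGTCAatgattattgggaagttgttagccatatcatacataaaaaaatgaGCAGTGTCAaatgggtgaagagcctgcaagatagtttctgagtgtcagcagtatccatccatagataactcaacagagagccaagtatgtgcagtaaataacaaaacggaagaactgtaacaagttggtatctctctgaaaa

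On both strands of these windows, 6 short elements were searched, and their share is given over all 32851 promoter windows. The windows of Cx3cr1, Ccr1 and Cxcr4 held none of them. The AP-1 element TGANTCA, found in 7.81% of all windows, reads the same on both strands. The Ccr3 window held it at 1 site, 144 bases before the start. It also held the NF-kB element GGGANTTTC (1.11% of all windows) on the opposite strand 178 bases before the start, and the antioxidant response element TGACNNNGC (12.4%), also on the opposite strand, 92 bases before it. The last element was in 1 of the 3 windows of Ccrl2 too, 42 bases before the start on the opposite strand. The Ccr2 window held the IRF element GAAANNGAA (8.56%) on the opposite strand 86 bases before the start. The PU.1 element GAGGAAGT (3.20% of all windows) and the CRE element TGACGTCA (1.79%) were in none of the windows of the 6 genes. A match of letters is a description of the window only.

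Cx3cr1 (ENSMUSG00000052336), the fractalkine receptor gene, lies on chromosome 9 from 119901616 to 120068283 on the minus strand (coordinates of the deposited table, GRCm38). It was counted 447 and 431 times in the DI libraries and 636 and 646 times in the vehicle libraries. These are levels of 26.0 and 23.0 CPM against 34.1 and 38.8 CPM. Each DI library was under each vehicle library. The means were 24.5 ± 2.16 and 36.4 ± 3.28 CPM (SD, n = 2 each), and the log2 fold change, with its standard error (SE), was -0.57 (SE 0.10, adjusted p = 0.0164, edgeR). This put the level with DI at 0.672 of that with vehicle (95% interval 0.567 to 0.797). Without DI replicate 2 the log2 fold change was -0.48 with an adjusted p of 0.0533 (edgeR), and without vehicle replicate 2 it was also -0.48 with an adjusted p of 0.0670 (edgeR). In bulk RNA, fewer cells that carry a transcript and less of it per cell cannot be told apart.

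The annotated locus of Cx3cr1 spans other genes, Gorasp1, Csrnp1 and Wdr48 among them, but shares no exon base with any gene of the deposited table. The antisense RNA Gm33858 covers 1.73% of its exons, and no source used here says whether strand entered the counts. Stretches of 101 to 126 bases in a Cx3cr1 transcript matched Cd274, Sntb2, Pgm2l1 and Oscp1 at 90.1% to 90.8% identity. Each covered at most 3.4% of that transcript, and their part in the counts of Cx3cr1 was not tested. Osteoclast markers were lower in the same libraries for 6 of the 10 tested, among them Acp5 at a log2 fold change of -0.95 and Ctsk at -0.58, and higher for 2, Itgb3 at 0.56 and Atp6v0d2 at 0.27. Over all tested genes, 7.70% were lower and 7.14% higher. The summed level of the osteoclast markers ran from 1172 to 1199.5 CPM with DI and from 1223 to 1235 CPM with vehicle. Monocyte markers, a list of 11 genes, summed to 28.1 and 27.6 CPM with DI and 27.1 and 29.2 CPM with vehicle, with 1 of 5 tested genes higher and 0 lower and a median log2 fold change of -0.16. The called gene was Treml4, a marker of patrolling monocytes, at 104 and 115 counts in the DI libraries against 22 and 43 (log2 fold change 1.71). The other 4 tested were Vcan at -0.33, Nr4a1 at -0.18, Chil3 at -0.16 and F13a1 at 0.26. Ace, another marker of these cells, had no count, and Ly6c2, which defines classical monocytes, had 0 and 6 counts against 8 and 9. The part of these markers in the change of Cx3cr1 was not tested. The ligand gene Cx3cl1 was counted 17 and 15 times with DI against 7 and 8 (log2 fold change 1.06, SE 0.41, adjusted p = 0.147, edgeR).

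Ccr1 (ENSMUSG00000025804) lies on the minus strand of chromosome 9 from 123962126 to 123968692. The DI libraries held 2395 and 2560 counts and the vehicle libraries 2255 and 1814, the deepest counts of the 6 genes. The levels were 139 and 136 CPM with DI and 121 and 109 CPM with vehicle. The groups did not overlap, though the vehicle libraries lay further apart than the DI libraries. Its log2 fold change was 0.26 (SE 0.061, adjusted p = 0.0398, edgeR), or 1.20-fold (95% interval 1.08 to 1.33). This call was near the threshold. It was lost when libraries were scaled by size only (log2 fold change 0.16, adjusted p = 0.125, edgeR), a scaling that moved the median of all tested genes to -0.10, and in edgeR's exact test (adjusted p = 0.0732). It was also lost without DI replicate 1 (0.25, adjusted p = 0.0994), without DI replicate 2 (0.28, adjusted p = 0.0693) and without vehicle replicate 2 (0.19, adjusted p = 0.123, edgeR). Over the 15 alternatives the value ran from 0.16 to 0.34 and the adjusted p from 0.0162 to 0.130. Macrophage markers summed to 29189 and 29968 CPM in the DI libraries against 23825 and 22969 CPM, most of it Lyz2, at 22758 and 23770 CPM against 18276 and 17617 CPM. Of the 11 rows, 5 were higher and 2 lower, Fcgr1 at a log2 fold change of -0.60 and Cd14 at -0.51. Csf1r, at 0.081, was not called. Over all tested genes, 7.14% were higher and 7.70% lower. The part of these markers in the difference of Ccr1 was not tested.

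A ratio within a library does not depend on its scaling. The libraries with DI held 5.36 and 5.94 counts of Ccr1 for each count of Cx3cr1, and those with vehicle 3.55 and 2.81. The balance between these genes was therefore shifted towards Ccr1 in both DI libraries. As both had been seen to differ, the ratio is a description.

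Cxcr4 (ENSMUSG00000045382) lies on chromosome 1 from 128588199 to 128592293, apart from the other 5 genes. The DI libraries held 1683 and 1938 counts and the vehicle libraries 1989 and 1788, or 98.0 and 103 CPM against 107 and 107 CPM. The DI libraries lay under the vehicle libraries by a small amount. The log2 fold change was -0.088 (SE 0.051, adjusted p = 0.304, edgeR), with a 95% interval from -0.21 to 0.036. This interval holds no decrease below 0.863 of the vehicle level and no increase above 1.03. On the deposited FPKM, which carry no TMM factor, it was called lower, at -0.19 on log2(FPKM + 1) with an adjusted p of 0.0428 (limma). That fit put the median of all tested genes at -0.0685 and called 536 genes higher and 1674 lower. Cxcl12, its ligand gene, had 15 and 20 counts against 6 and 28, and Mif, another ligand, had a log2 fold change of -0.14 (adjusted p = 0.0820, edgeR).

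Ccrl2, Ccr3 and Ccr2 were low. Ccrl2 (ENSMUSG00000043953, chromosome 9 from 111054486 to 111057519) had 134 and 135 counts (7.80 and 7.20 CPM) in the DI libraries against 136 and 108 (7.30 and 6.48 CPM). A log2 fold change of 0.12 had a 95% interval from -0.22 to 0.46 (adjusted p = 0.618, edgeR), and the groups overlapped. Ccr3 (ENSMUSG00000035448, chromosome 9 from 124021971 to 124031689) had 84 and 119 counts (4.89 and 6.34 CPM) against 131 and 104 (7.03 and 6.24 CPM). Here DI replicate 2 lay within the vehicle range and DI replicate 1 under it, at a log2 fold change of -0.24 (interval -0.67 to 0.20, adjusted p = 0.429, edgeR). Of the eosinophil, mast cell and basophil markers, Epx, Prg3, Il5ra, Ms4a2 and Fcer1a had no count in any library. Prg2 had 1 count in all. Of 13 markers, 2 were tested, Siglecf and Gata2, and neither was called (median log2 fold change 0.13). The list summed to 5.12 and 3.36 CPM with DI and to 3.76 and 3.42 CPM with vehicle.

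Ccr2 (ENSMUSG00000049103, chromosome 9 from 124101950 to 124113557) was the lowest, at 41 and 28 counts in the DI libraries against 36 and 45 in the vehicle libraries. The groups overlapped, and the spread within each exceeded the difference between their means of 1.94 and 2.32 CPM. Its log2 fold change was -0.26, and the 95% interval from -1.05 to 0.54 leaves room for changes from 0.481 to 1.46 of the vehicle level (adjusted p = 0.655, edgeR). Without DI replicate 2 the value was 0.054. A change within that interval could not be told from none with these libraries. Related receptor genes share stretches of sequence, so that its few counts are uncertain where reads could be split between copies.

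**Figure D2:**
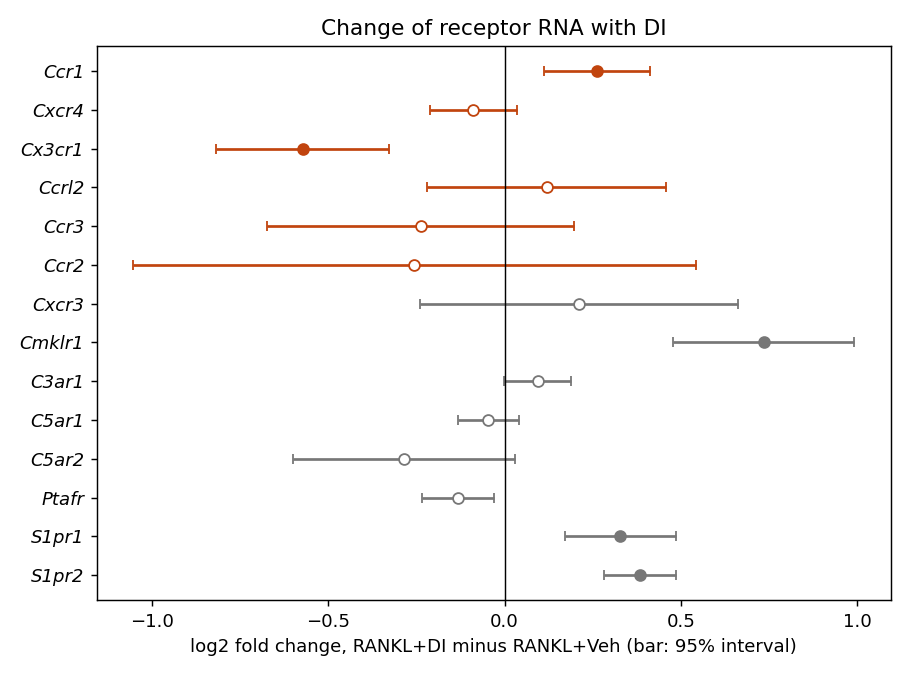
Log2 fold change (RANKL+DI minus RANKL+Veh) with its 95% interval for the 6 receptor genes in red and 8 other tested receptors of chemoattractants in grey (not all are drawn); filled points passed an adjusted p of 0.05. Cx3cr1 lies at -0.57 and Ccr1 at 0.26, and among the 6 genes the widest interval is that of Ccr2, from -1.05 to 0.54.

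Levels of different genes can be compared only per length, and the deposited FPKM (fragments scaled by gene length and library total) put Ccr1 first, at 47.0 ± 0.571 with DI and 42.1 ± 3.16 with vehicle (SD, n = 2 each). Cxcr4 followed at 35.9 ± 1.45 and 41.0 ± 0.137, then Cx3cr1 at 3.43 ± 0.292 and 5.49 ± 0.491, Ccr3 at 1.66 ± 0.308 and 2.10 ± 0.177, Ccrl2 at 1.51 ± 0.0818 and 1.495 ± 0.126, and Ccr2 at 0.133 ± 0.0430 and 0.171 ± 0.0400. Ccr1 and Cxcr4 overlapped in the vehicle libraries, and Ccr3 and Ccrl2 in the DI libraries, so that neither pair is separated in both groups.

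This order depends on the gene length behind the FPKM. For Ccr2 that length was 14043 bases, although the whole locus spans 11608 bases and its exons, merged over transcripts, cover 6760 bases in GENCODE M21. It was 2707 against 1808 merged bases for Cxcr4, 4775 against 2598 for Ccrl2 and 6885 against 4505 for Cx3cr1. For Ccr1 and Ccr3, which have 1 annotated transcript each, it was 2831 against 2833 and 3273 against 3272. For Cxcr4 it equalled the lengths of its 2 transcripts added together. The lengths added over transcripts were 14507 bases for Ccr2, 4892 for Ccrl2 and 11402 for Cx3cr1. Of 8308 tested genes with several transcripts and the same start and end in both annotations, 91.9% had a length more than 5% over their merged exons. Only 14.0% of these genes lay within 5% of the lengths of their transcripts added together.

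On merged exon length, Cxcr4 was the most abundant of the 6, at 53.7 CPM per kilobase (here of the unscaled library total) with DI and 61.3 with vehicle, above Ccr1 at 47.0 and 42.0. Cxcr4 exceeded Ccr1 in 4 of 4 libraries, by 1.10-fold and 1.19-fold with DI and by 1.38-fold and 1.54-fold with vehicle. Ccrl2 passed Ccr3 in the order too, at 2.78 and 2.75 against 1.66 and 2.10, and was the higher of that pair in 4 of 4 libraries. Cx3cr1, at 5.25 and 8.38, stayed in the third place and Ccr2, at 0.277 and 0.355, in the last. Comparisons of DI with vehicle for 1 gene are not touched by its length.

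**Figure D3:**
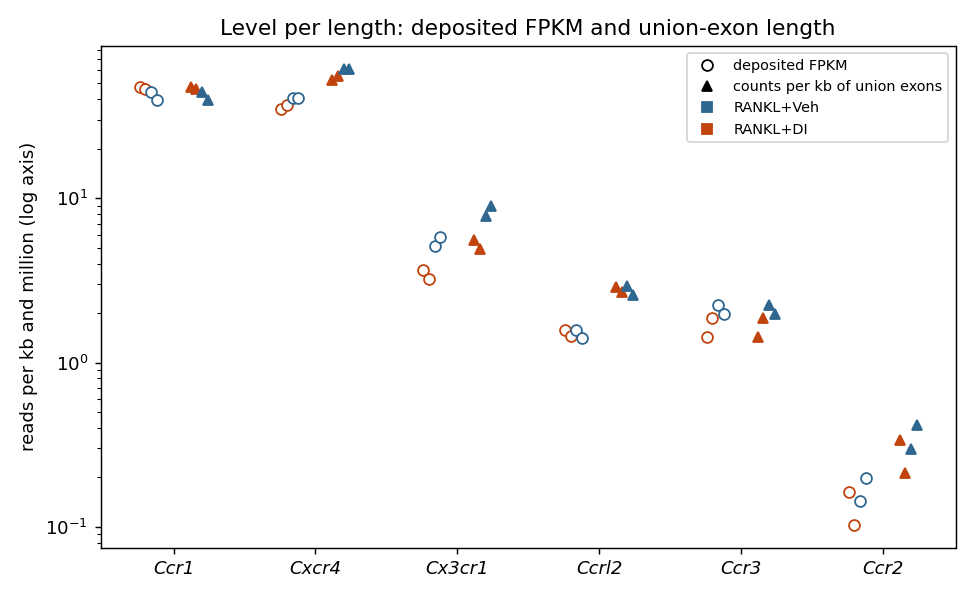
CPM per kilobase of the 6 genes on a log axis, as the deposited FPKM (open circles) and as counts per kilobase of merged (union) exons (triangles), with RANKL+Veh in blue and RANKL+DI in red. The circles put Ccr1 above Cxcr4 in 3 of 4 libraries and the triangles put Cxcr4 above Ccr1 in all 4.

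Of the 6 genes, 5 lie on chromosome 9, and Ccr1, Ccr3 and Ccr2 follow each other within 151.4 kb. The gene Ccr1l1, between Ccr1 and Ccr3, had 0 to 3 counts per library. Of the 3 receptor genes of this stretch among the 6, Ccr1 was called and Ccr3 and Ccr2 were not.

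Within 500 kb of the 6 genes, 29 other genes were tested, and 1 was called higher and 1 lower, where 7.14% and 7.70% of all tested genes were. None of the 8 around the cluster was called. Among them were Limd1, Sacm1l, Gm17200, Lztfl1, Fyco1, 2010315B03Rik and Ppp2r3d, with log2 fold changes from -0.16 for 2010315B03Rik to 0.69 for Gm17200, a gene with few counts. Around Cx3cr1, none of 8 tested genes was called (Exog, Acvr2b, 4930516B21Rik, Wdr48, Gorasp1, Csrnp1, Slc25a38 and Rpsa, from -0.51 to 0.26). Around Ccrl2, Lrrfip2 was higher (0.31, adjusted p = 0.0233, edgeR), a call held in 8 of 15 alternatives and lost without DI replicate 2 or either vehicle library (adjusted p from 0.0588 to 0.0989, edgeR). The other 8 tested there, Nbeal2, Ccdc12, Als2cl, Epm2aip1, Nradd, Ltf and Prss46 among them, were not called. Around Cxcr4, Mcm6, a subunit of the replicative helicase, was lower (-0.52, adjusted p = 0.00148, edgeR), and R3hdm1, Dars and Ubxn4 were not called.

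**Figure D4:**
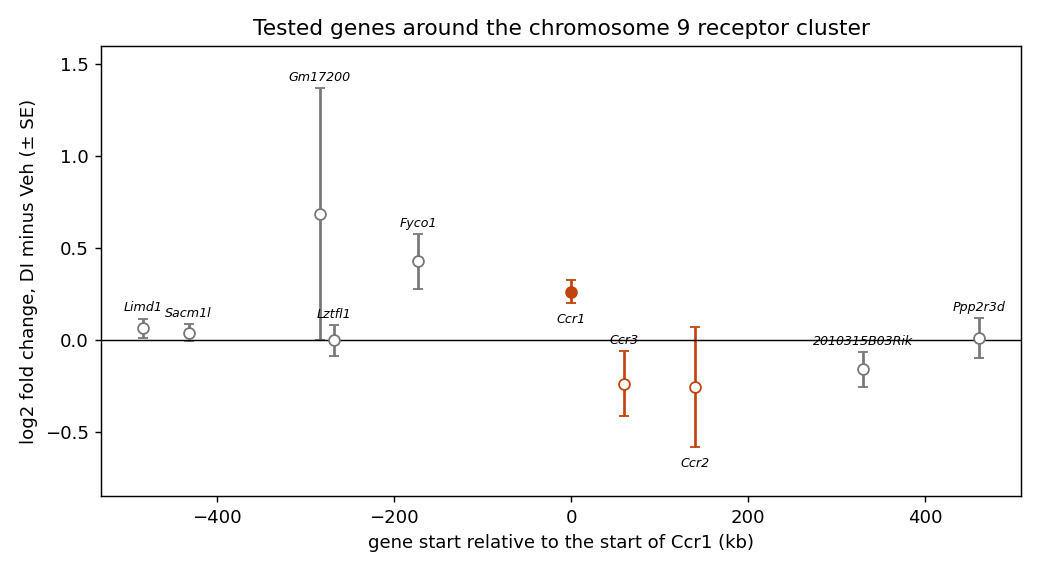
Log2 fold change (RANKL+DI minus RANKL+Veh, ± SE) of tested genes (not all are drawn) against the distance of their start from that of Ccr1 in kb, with Ccr1, Ccr3 and Ccr2 in red and other genes in grey; filled points passed an adjusted p of 0.05. Ccr1, at 0.26, is the filled point, while Ccr3 at -0.24 and Ccr2 at -0.26 are open points.

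Of 14 other signalling chemokine receptors, 2 were tested and neither was called. Cxcr3 had 66 and 77 counts against 59 and 62. The other 12 had at most 9.75 counts per library on average. Of 7 atypical chemokine and chemerin receptors, 1 was tested, Cmklr1, and it was called higher. Of all tested genes, 7.14% were higher and 7.70% lower, and 1 gene does not describe a list. Cmklr1, the signalling receptor of chemerin, was counted 707 and 750 times in the DI libraries against 499 and 365, or 41.2 and 40.0 CPM against 26.8 and 21.9 CPM. Both DI libraries were above both vehicle libraries, at 0.74 on the log2 scale (SE 0.11, adjusted p = 0.00851, edgeR), and the call held in 15 of 15 alternatives. Chemerin is encoded by Rarres2, which had 0 to 4 counts per library.

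Of 13 other chemoattractant receptors, 7 were tested and 2 were called, both higher (median log2 fold change 0.094), where 7.14% of all tested genes were higher and 7.70% lower. S1pr2, a receptor of sphingosine 1-phosphate that keeps osteoclast precursors away from blood, stood at 158 and 158 CPM with DI and at 120 and 123 CPM with vehicle (log2 fold change 0.38, SE 0.042, adjusted p = 0.00376, edgeR). S1pr1, which draws these precursors towards blood, stood at 52.3 and 53.1 CPM against 43.0 and 41.0 CPM (0.33, SE 0.064, adjusted p = 0.0231, edgeR). S1pr1 was no longer called when any 1 library was left out, with adjusted p-values from 0.0550 to 0.0859 (edgeR). The complement receptors C3ar1, C5ar1 and C5ar2 had log2 fold changes of 0.094, -0.046 and -0.28, the receptor Ptafr of -0.13 and S1pr4, on 5 to 14 counts per library, of 0.37, and none of these was called with TMM scaling. With library size only, 1 of the 7 was called higher, S1pr2, and 2 lower, Ptafr (-0.24, adjusted p = 0.0137) and C5ar1 (-0.15, adjusted p = 0.0349, edgeR), and C3ar1 turned to -0.0093. On the deposited FPKM 2 were called higher and 2 lower.

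Ligands of the 6 receptors were lower where they were called. Of 16 ligand genes, 11 were tested, 4 were lower and 0 higher, where 7.70% and 7.14% of all tested genes were, with a median log2 fold change of -0.14. Ccl9, the most abundant of them, fell from 1638 and 1564 CPM with vehicle to 1020 and 1007 CPM with DI (log2 fold change -0.66, SE 0.036, adjusted p = 5.62e-04, edgeR). The Ccr2 ligand Ccl7 stood at -0.88 (adjusted p = 0.0331) and Ccl12, on 9 to 28 counts per library, at -1.39 (adjusted p = 0.0464, edgeR). With each library left out in turn between 1 and 2 of the ligand genes were called, and 2 under the DESeq2 Wald test. Leaving out either vehicle library or DI replicate 2 left 1 call, and leaving out DI replicate 1 left 2. Ccl12 was not called in any of these (adjusted p from 0.102 to 0.190, edgeR), and Ccl7 was called only without DI replicate 1, whereas Ccl9 was called in each. Ccl6 was lower as well, at -0.28 (adjusted p = 0.0443, edgeR), and was called in none of the fits that left out a library. The ligands Ccl2, Ccl3, Ccl4 and Ccl5 were not called, at log2 fold changes of -0.21, 0.14, 0.034 and 0.032.

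Among 36 tested genes of G protein signalling and receptor desensitization, 4 were higher and 3 lower, with a median log2 fold change of 0.080. These counts are near the background of 7.14% higher and 7.70% lower over all tested genes. Adrbk2, which encodes the receptor kinase GRK3, had 464 and 403 counts against 861 and 754. It fell from 45.7 ± 0.674 to 24.2 ± 3.92 CPM (SD, n = 2 each), by a log2 value of -0.92 (SE 0.11, adjusted p = 0.00550, edgeR). It kept its call in 15 of 15 alternatives. The others called were smaller: Pik3r5 (-0.43) was among the lower, and Gng2 (0.32), Pik3cg (0.19), Ptk2b (0.18) and Gnai2 (0.13) were higher. With library size only 4 genes were called, 1 higher and 3 lower. Without DI replicate 1 or without vehicle replicate 2, 3 were called. The kinase gene Adrbk1 and the arrestin genes Arrb1 and Arrb2 had log2 fold changes of 0.076, 0.31 and 0.15 and were not called.

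The genes nearest to Cx3cr1 in the pattern of their centred log2 CPM over the 4 libraries included Cdh11 and Nr1h3, at Euclidean distances of 0.0364 and 0.0539. Those nearest to Ccr1 were Lrpap1, Tprkb and P2rx5, at 0.00658, 0.00754 and 0.0166. Of 12568 genes, 34 lay within 0.1 of Cx3cr1 and 281 within 0.1 of Ccr1.

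**Figure D5:**
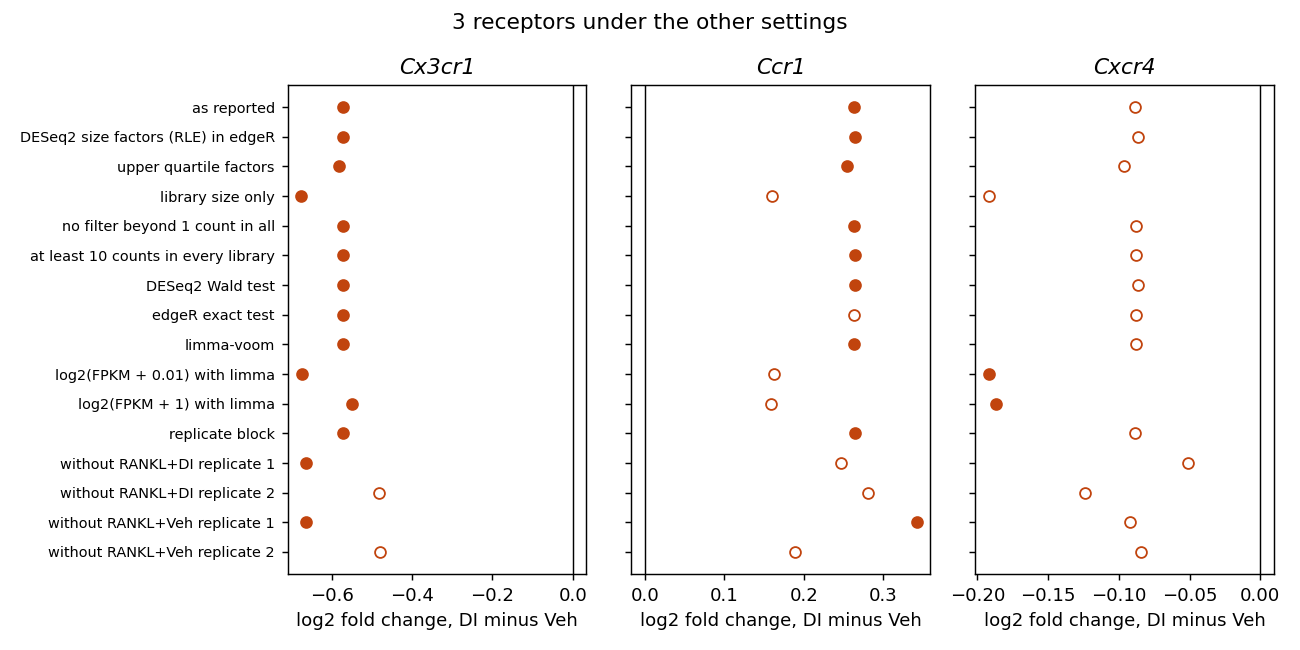
Log2 fold change (RANKL+DI minus RANKL+Veh) of Cx3cr1, Ccr1 and Cxcr4 as reported and under 15 other settings, with filled points for an adjusted p under 0.05. Cx3cr1 lies between -0.68 and -0.48 with 13 of its 15 other settings filled, Ccr1 between 0.16 and 0.34 with 8 filled, and Cxcr4 between -0.19 and -0.051 with 2 filled.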

How the data were processed

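The authors deposited raw counts per gene and library, with FPKM values that they made from these counts, a gene length and the library total. A second deposited table with the same values and added annotation was not used. The labels name GRCm38 and mm10, and the aligner and counting program are not given in the sources used here. Of 34267 identifiers shared with GENCODE M21 (GRCm38), 80.8% had the same start and end. Samples were grouped by their titles.

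Counts were fitted with edgeR 4.0.16 in R 4.3.3: TMM factors, filterByExpr with its defaults (12590 genes kept), a quasi-likelihood fit with the treatment as its term, and Benjamini-Hochberg adjustment over all tested genes. Standard errors were the log2 fold change over the root of F, and intervals used the moderated degrees of freedom. The spread rests on 2 libraries per group. The steps were run on simulated counts drawn independently for each library, which cannot test how the libraries of a group relate. Alternatives were other scalings (DESeq2 size factors, upper quartile, library size only), filters (1 count in all, 10 counts in every library) and tests (DESeq2 1.42.0, edgeR's exact test, limma-voom 3.58.1, limma on log2(FPKM + 0.01) and log2(FPKM + 1)), the replicate number as a block, and each library left out. The level on merged exons was added after the data were seen. Transcripts were compared with BLAST+ 2.17.0 (at least 90% identity over 100 bases).

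The 6 genes and all lists were chosen with earlier results of these data known. Named were the 6 genes, chemoattractant receptors with at least 10 counts on average, called ligand and signalling genes with an absolute log2 fold change of at least 0.5, tested genes within 500 kb, and the 3 genes nearest in pattern to each called gene. The other signalling and ligand genes, and the receptors and markers with few counts, were named after their values were seen. Some genes that meet the rule are not reported here. Libraries of a group differed by more than counting noise (chi-square per degree of freedom of 7.98 with DI and 8.14 with vehicle).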

Additional observations from a re-analysis of the deposited data

How the results depend on the processing

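Of the 15 alternatives, Cx3cr1 kept its call in 13 and Ccr1 in 8, and Ccr2, Ccr3 and Ccrl2 were called in none. With each library left out in turn, the log2 fold changes ran from -0.665 to -0.479 for Cx3cr1, 0.189 to 0.342 for Ccr1, -0.124 to -0.0509 for Cxcr4, -0.439 to -0.0669 for Ccr3, 0.0384 to 0.209 for Ccrl2 and -0.624 to 0.0535 for Ccr2, which turned positive without DI replicate 2. The number of genes called fell from 1868 to between 1073 and 1369 (1244 without DI replicate 2, 1153 without vehicle replicate 1 and 1073 without vehicle replicate 2). Between 0 and 1 of the other chemokine receptors, 1 of the other chemoattractant receptors, 1 and 2 ligands and 3 and 5 signalling genes were then called. S1pr4 ran from -0.110 without vehicle replicate 2 to 1.19 without vehicle replicate 1.

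With library size only, Ccr1 was at 0.160, C3ar1 at -0.00931, 1 other chemokine receptor and 4 signalling genes were called, and the genes called over the whole table were 548 higher and 1932 lower, against 899 and 969. On log2(FPKM + 0.01) and log2(FPKM + 1), which carry no TMM factor, Ccr1 was at 0.162 and 0.159 and no longer called, Cxcr4 was at -0.192 and -0.187 and called lower, C3ar1 was at -0.00872 and -0.00869, and 4 chemoattractant receptors and 4 signalling genes were called. The median of all tested genes was -0.101 and -0.0685 in these FPKM fits. The exact test put Ccr1 at 0.263 without a call and called 3 signalling genes. The DESeq2 Wald test called 2 ligands and 4 signalling genes. Causes were not tested.

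Same-numbered libraries did not deviate together (correlation -0.0308). With 2 libraries per group, the deviations within a group mirror each other, so matching the numbers the other way only turns the sign. Libraries paired without a shared deviation could give such a value too, so it cannot decide whether same-numbered libraries were paired. The labels do not give the origin of the libraries. With the replicate number as a block, 2 ligands, 3 signalling genes and 1389 genes in all were called, and Cx3cr1 and Ccr1 kept their calls at adjusted p = 0.0429 and 0.0471 (edgeR).

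Per kilobase of merged exons the mean level was 57.5 for Cxcr4, 6.82 for Cx3cr1, 2.76 for Ccrl2 and 0.316 for Ccr2, against FPKM of 38.4, 4.46, 1.5 and 0.152. Depth limits Ccr2, with 28 to 45 counts per library, and 2 libraries per group limit all of the tests.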
